A study of Mus with 8 samples.

Results

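The genes described here are the Wnt ligands, their receptors and the secreted proteins that modulate them, measured by RNA-seq in 3T3-L1 cells, a mouse preadipocyte line that can be differentiated into adipocytes in culture. They were chosen by symbol: the Wnt, Fzd, Dkk, Sfrp and Rspo families and Lgr4, Lgr5 and Lgr6, together with Lrp5, Lrp6, Wif1, Frzb, Znrf3, Rnf43, Axin2 and the TCF/LEF factors Tcf7, Lef1, Tcf7l1 and Tcf7l2. This gave 55 of the 24013 genes in the count table, among them 19 Wnt ligands, 10 frizzled receptors, 2 co-receptors, 10 secreted inhibitors, 9 genes of the R-spondin, Lgr and E3 ligase group, 1 feedback target and 4 TCF/LEF factors. All cells had been infected with a lentivirus and selected in puromycin. C cells carried a scrambled shRNA and P cells an shRNA against Prep1 (gene symbol Pknox1), a homeodomain transcription factor. RNA was taken at day −2, before induction, and at day 1, after 24 hours in DMEM with FBS, dexamethasone (1 µM), 3-isobutyl-1-methylxanthine (0.5 mM) and insulin (1 µg/ml). Before induction the cells grew in DMEM with BCS, and induction followed after they had reached confluence. No cells without this inducing cocktail were sequenced at day 1. Its effect cannot be told apart from that of time in culture, confluence or the change of serum. Each of the 4 conditions had 2 biological replicas, 8 libraries in all. P cells are a population made with a single shRNA, so a difference between P and C cells cannot be told apart from an effect of that infection or of that shRNA on other genes.

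Wnt proteins are lipid-modified ligands that bind a frizzled receptor and, in the canonical branch, the co-receptor LRP5 or LRP6. Binding stops the degradation of β-catenin, which then acts with TCF/LEF factors on target genes. SFRP, DKK, WIF1 and FRZB proteins inhibit the ligand or the co-receptor outside the cell, while R-spondins bind LGR4, LGR5 or LGR6 and spare frizzled receptors from the E3 ligases ZNRF3 and RNF43. Canonical Wnt signalling is known to hold preadipocytes undifferentiated, with Wnt10b, Wnt10a and Wnt6 as its best known ligands in these cells.

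The libraries held between 20428816 and 27614353 counts. Levels are given in CPM, a gene's counts scaled to a common library size after TMM normalisation, with effective sizes from 18777200 to 28032800. At these sizes 3 counts, the limit that a count of 0 allows, corresponded to 0.107 to 0.160 CPM. Intervals and limits of this kind cover counting error only. Pknox1 was lower in P cells by −0.62 ± 0.14 (log2 ratio ± SE) at day −2 and by −0.65 ± 0.14 at day 1 (edgeR, adjusted p = 0.0558 and 0.0575). Neither ratio was under 0.5, the limit for a call given below. Over the alternatives described at the end, its log2 ratio lay between −0.80 and −0.57 at day −2 and between −0.70 and −0.55 at day 1. Its adjusted p was not under 0.1 in all of them. The replicas of P cells at day −2 stood apart from each other: over 5600 well expressed genes the SD of their log2 difference was 0.795, and in the other conditions it lay between 0.121 (P cells, day 1) and 0.261 (C cells, day 1). In the first of these P replicas the 9 fibroblast and preadipocyte markers summed to 52989 CPM and in the second to 17884 CPM, against 15144 and 15863 CPM in C cells of that day. Most of the first sum was Col1a1 (23560 and 4882 CPM in the P replicas) and Col3a1 (15766 and 3904 CPM). Pdgfra (196 and 195 CPM) and Fn1 (3108 and 3208 CPM) hardly differed between these replicas. All 9 were detected in every library, and the defining markers of other lineages were below 1 CPM in every library apart from Cd68, a macrophage gene, at up to 5.28 CPM, and Krt8, an epithelial keratin, at 3.11 and 2.35 CPM in C cells of day −2 and at most 0.214 CPM elsewhere. The 7 adipocyte markers summed to 21.6 to 22.2 CPM in C cells and 43.5 to 46.2 CPM in P cells at day −2, and to 36.2 to 42.9 CPM in C cells and 201 to 203 CPM in P cells at day 1. At day −2 most of the excess in P cells was Fabp4 (28.4 and 19.8 CPM, against 2.07 and 2.35 CPM in C cells). Pparg overlapped between them (12.1 and 21.2 CPM, against 19.2 and 19.5 CPM). In C cells of day 1 the sum was nearly all Pparg (41.2 and 34.2 CPM), with Fabp4 at 0.789 and 1.39 CPM. At day 1 each marker but Lep was higher in P cells. In bulk libraries a change in the share of cells of a type and a change in RNA per cell cannot be told apart.

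Of the 55 genes, 29 passed the filter on low counts and were tested among 13339 genes. A gene was called at an adjusted p under 0.1 with a ratio over 2 or under 0.5. 14 of the 29 were called in at least 1 test and 15 in none, where 31.0% of all genes tested were called in at least 1. The other 26 genes never exceeded 12 counts in a library. They included 11 of the 19 Wnt ligands, 8 of the 10 secreted inhibitors (Sfrp1, Sfrp4 and Sfrp5, Dkk1, Dkk2 and Dkk4, Frzb and Wif1) and Axin2, the usual reporter of canonical signalling, which had at most 4 counts in a library and 6 in all. Expression of these genes was at or near the detection limit at this depth.

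**Figure D1:**
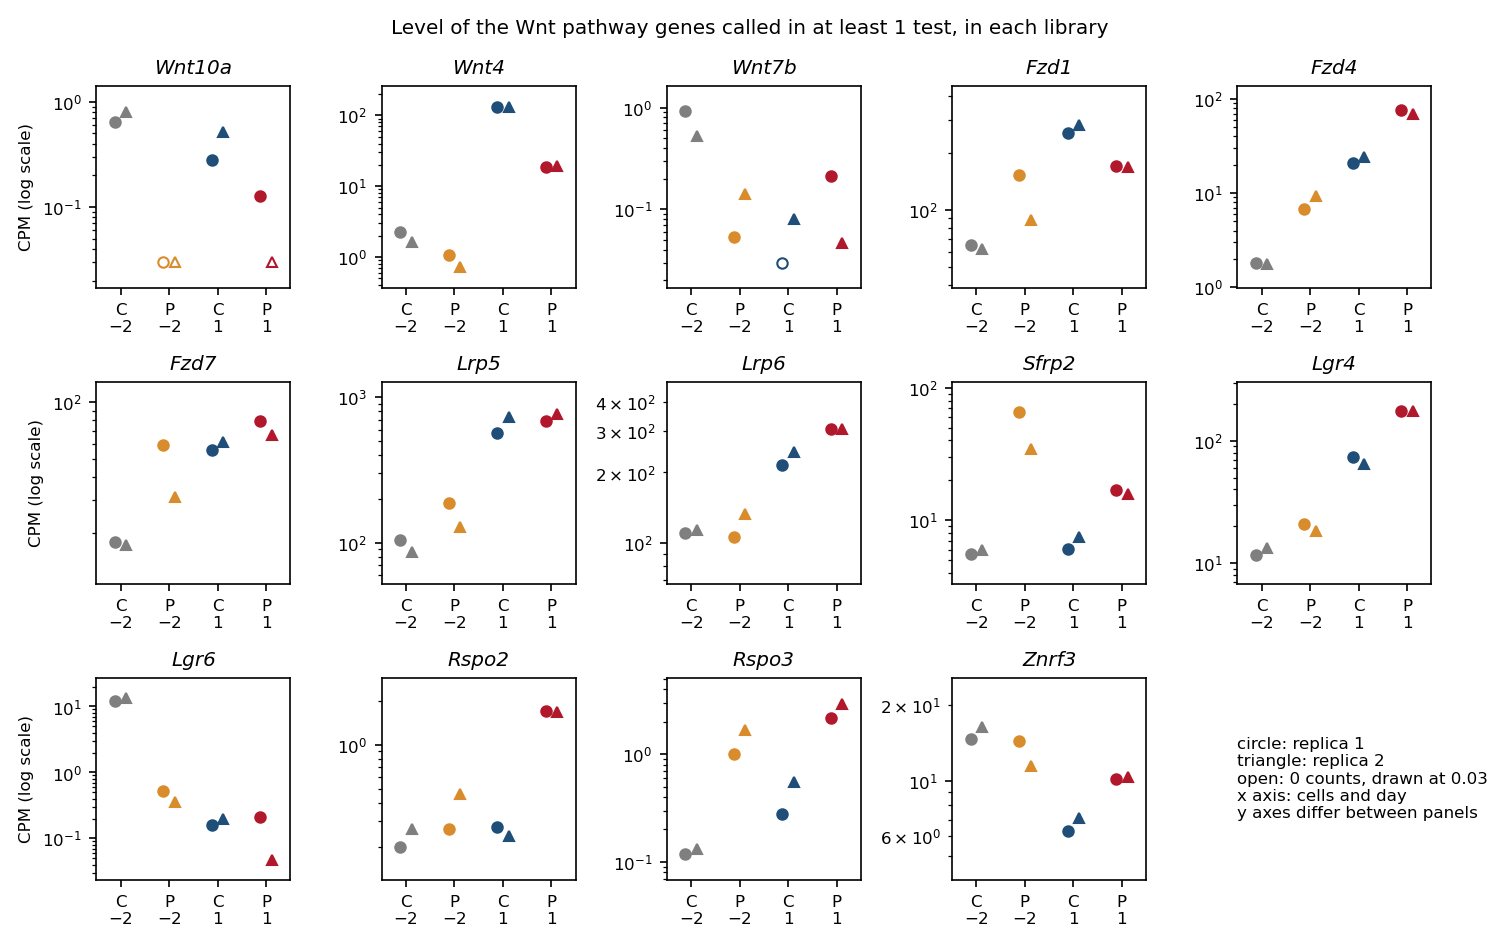
Level (CPM, log axis) of the 14 called genes in each library, with circles for replica 1, triangles for replica 2 and open symbols for 0 counts. Wnt4 rose from at most 2.27 CPM in every library of day −2 to 131 and 133 CPM in C cells of day 1 but to 18.9 and 19.6 CPM in P cells, and Lgr6 was above 12 CPM only in C cells of day −2.

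The first question was what the inducing cocktail did to these genes in C cells. Wnt4, a ligand that signals through both branches of the pathway, rose most in log2 ratio, and it rose together with 3 frizzled receptors, both co-receptors, Lgr4 and Rspo3, whereas Wnt7b, Lgr6 and Znrf3 fell. That is 8 of 29 genes called higher (27.6%) and 3 called lower (10.3%), where 10.7% of all genes tested were called higher and 9.68% lower. The median log2 ratio of the 29 genes was 0.21, against −0.01 over all genes.

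Wnt4 stood at 2.27 and 1.64 CPM in C cells at day −2 and at 133 and 131 CPM at day 1. The replicas of a day lay close together and the days did not overlap. The log2 ratio was 6.07 ± 0.25 (edgeR, adjusted p = 6.16e-05). Fzd4, a receptor of Wnts and of norrin, went from 1.79 and 1.77 CPM to 20.7 and 24.4 CPM, a log2 ratio of 3.66 ± 0.22 (edgeR, adjusted p = 0.000151). Fzd1 went from 65.0 and 62.4 CPM to 254 and 279 CPM, a log2 ratio of 2.07 ± 0.26 (edgeR, adjusted p = 0.00196). Fzd7 went from 17.9 and 17.3 CPM to 55.6 and 61.5 CPM, a log2 ratio of 1.73 ± 0.30 (edgeR, adjusted p = 0.007). All 3 receptors were higher in both replicas of day 1 than in either of day −2. Part of the Fzd4 locus is shared with Tmem135, and whether counting used strand is not given in the sources used here, so reads of these genes may not be told apart.

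The co-receptors rose as a pair. Lrp5 was at 104 and 87.1 CPM at day −2 and at 571 and 728 CPM at day 1, a log2 ratio of 2.76 ± 0.25 (edgeR, adjusted p = 0.000551). Lrp6 was at 111 and 114 CPM and then at 216 and 245 CPM, a log2 ratio of 1.04 ± 0.16 (edgeR, adjusted p = 0.00446). Both rose without overlap between days, but Lrp6 was close to the ratio threshold, and without replica 2 of C cells at day 1 its log2 ratio of 0.96 no longer met it.

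Lgr4, the R-spondin receptor, rose from 11.6 and 13.3 CPM to 73.5 and 64.2 CPM, a log2 ratio of 2.47 ± 0.16 (edgeR, adjusted p = 0.000179). Its relative Lgr6 moved the other way, from 304 and 306 counts (12.1 and 13.6 CPM) to 4 and 5 counts, a log2 ratio of −6.13 ± 0.48 (edgeR, adjusted p = 0.000315). The 2 receptors thus changed in opposite directions, in both replicas of each day. Znrf3, an E3 ligase that removes frizzled receptors, fell from 14.7 and 16.3 CPM to 6.31 and 7.09 CPM, a log2 ratio of −1.21 ± 0.19 (edgeR, adjusted p = 0.00519). Both replicas of day 1 were below both of day −2.

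The calls of Rspo3 and Wnt7b rested on few counts. Rspo3, a secreted R-spondin, had 3 and 3 counts at day −2 and 7 and 14 at day 1, a log2 ratio of 1.68 ± 0.62 (edgeR, adjusted p = 0.0904). It was no longer called when any library other than those of P cells at day −2 was left out, with log2 ratios from 1.11 (without replica 2 of C cells at day 1) to 2.13 (without replica 1). Wnt7b, a ligand, had 23 and 12 counts at day −2 and 0 and 2 at day 1, summing to 35 and 2 counts, a ratio of 18.5 with an exact interval of 4.76 to 159 (edgeR, adjusted p = 0.0352). Its call was lost without either replica of C cells at day −2 and without replica 1 at day 1, with log2 ratios of −3.57, −4.36 and −3.08. AU022754, a non-coding gene that overlaps Wnt7b, had 53 and 60 counts at day −2 and 2 and 3 at day 1, and reads of the pair may not be told apart.

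The same change from day −2 to day 1 was then followed in P cells. Wnt4, Fzd4, Lrp5, Lrp6 and Lgr4 rose in P cells too, and Rspo2 was added, whereas Sfrp2 and Lgr6 fell. In numbers, 6 of 29 genes were called higher (20.7%) and 2 lower (6.90%), against 7.65% and 10.4% of all genes, with a median log2 ratio of 0.38 against 0.02.

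In P cells Wnt4 went from 1.07 and 0.713 CPM to 18.9 and 19.6 CPM, a log2 ratio of 4.46 ± 0.25 (edgeR, adjusted p = 0.000163). Fzd4 went from 6.82 and 9.31 CPM to 75.9 and 69.5 CPM, a log2 ratio of 3.17 ± 0.21 (edgeR, adjusted p = 0.000285). Lgr4 went from 20.7 and 18.4 CPM to 176 CPM in both replicas, a log2 ratio of 3.17 ± 0.16 (edgeR, adjusted p = 0.000128). Each of these 3 genes was higher at day 1 in both replicas, without overlap. Lrp5 went from 188 and 128 CPM to 685 and 761 CPM, a log2 ratio of 2.19 ± 0.24 (edgeR, adjusted p = 0.0016). Lrp6 went from 106 and 133 CPM to 305 and 306 CPM, a log2 ratio of 1.35 ± 0.16 (edgeR, adjusted p = 0.00213). The co-receptors thus rose without overlap between days in P cells as well.

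Fzd1 and Fzd7 were not called in P cells: their log2 ratios were 0.49 ± 0.25 and 0.69 ± 0.29 (edgeR, adjusted p = 0.194 and 0.135). Sfrp2, a secreted frizzled-related protein that binds Wnts, went from 65.1 and 34.4 CPM to 16.9 and 15.7 CPM, a log2 ratio of −1.61 ± 0.31 (edgeR, adjusted p = 0.0127). Both replicas of day 1 were below both of day −2, and the call was lost without replica 2 of P cells at day 1 at a log2 ratio of −1.55. Rspo2, another R-spondin, had 5 and 13 counts at day −2 and 40 and 36 at day 1, a log2 ratio of 2.17 ± 0.46 (edgeR, adjusted p = 0.0186). This call was lost without either replica of P cells at day 1, at log2 ratios of 2.17 and 2.19. Lgr6 had 10 and 10 counts and then 5 and 1, a log2 ratio of −1.67 ± 0.58 (edgeR, adjusted p = 0.0859). That call was lost without any library other than replica 2 of P cells at day −2 and replica 1 at day 1, and the lowest size was a log2 ratio of −1.01 without replica 2 of P cells at day 1.

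**Figure D2:**
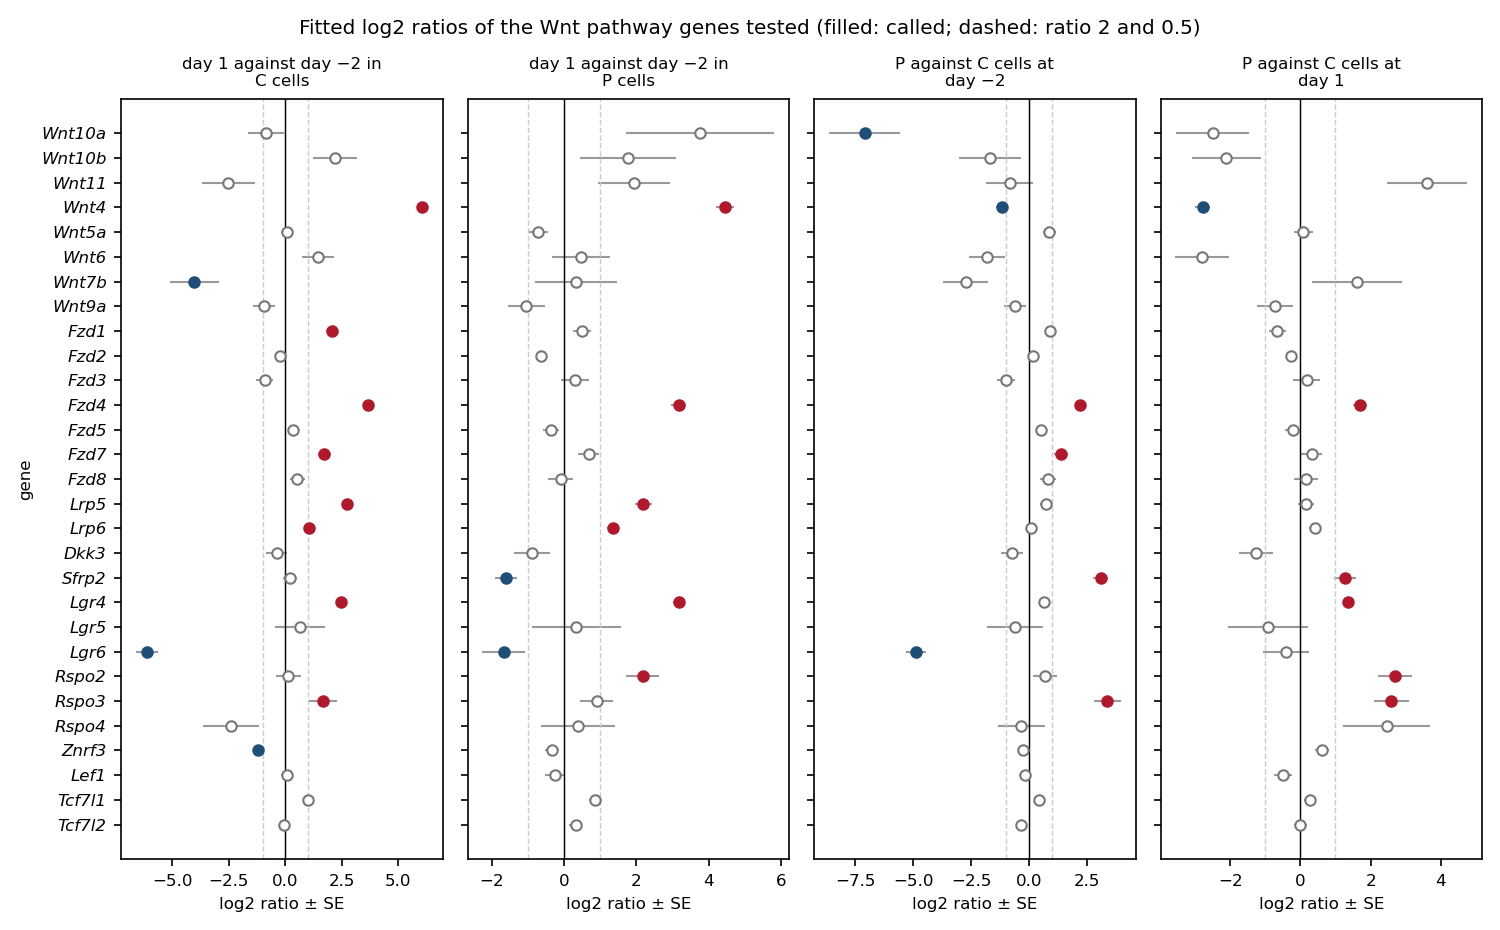
Fitted log2 ratio ± SE of the 29 tested genes in the 4 comparisons, with filled points for called genes, dashed lines at ratios of 2 and 0.5, and x axes that differ between panels. Wnt4, Fzd4, Lrp5, Lrp6 and Lgr4 were called higher at day 1 in both kinds of cells, and the Wnt10a point at day −2 comes from 0 counts in P cells, so that its position has no meaning as a size.

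The next question was how P cells differed from C cells before any cocktail was given. P cells had more RNA of the receptors Fzd4 and Fzd7, of the inhibitor Sfrp2 and of Rspo3, and less of Wnt4, Wnt10a and Lgr6. The 4 genes called higher were 13.8% of the 29, where 4.83% of all genes were called higher, and the 3 called lower were 10.3%, where 2.15% were called lower. The median log2 ratio of the 29 genes was −0.18, against 0.01 over all genes.

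Lgr6 was at 12.1 and 13.6 CPM in C cells and at 0.533 and 0.357 CPM in P cells, a log2 ratio of −4.86 ± 0.44 (edgeR, adjusted p = 0.00243). P replicas were far below both C replicas. Krt8, the keratin named above, was also high in C cells of day −2 alone, and its part in the result was not tested. Sfrp2 was at 5.62 and 6.03 CPM in C cells and at 65.1 and 34.4 CPM in P cells, a log2 ratio of 3.09 ± 0.33 (edgeR, adjusted p = 0.00404). Fzd4 was at 1.79 and 1.77 CPM in C cells and at 6.82 and 9.31 CPM in P cells, a log2 ratio of 2.18 ± 0.22 (edgeR, adjusted p = 0.00352). Both genes were higher in each P replica than in either C replica. Without replica 1 of P cells the log2 ratios were −5.14, 2.57 and 2.39 for Lgr6, Sfrp2 and Fzd4, and without replica 2 they were −4.58, 3.48 and 1.93, all 3 still called.

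Rspo3 had 3 and 3 counts in C cells, against 19 and 47 counts for P cells, a log2 ratio of 3.37 ± 0.58 (edgeR, adjusted p = 0.0225), and its call was lost without either C replica of that day at log2 ratios of 3.30 and 3.44. Fzd7 was at 17.9 and 17.3 CPM in C cells and at 59.4 and 31.3 CPM in P cells, a log2 ratio of 1.36 ± 0.30 (edgeR, adjusted p = 0.0473). The groups did not overlap, but replica 1 of P cells was far above replica 2, and without it the log2 ratio was 0.84 and not called. Wnt4 was at 2.27 and 1.64 CPM in C cells and at 1.07 and 0.713 CPM in P cells, a log2 ratio of −1.17 ± 0.26 (edgeR, adjusted p = 0.0522). Without replica 2 of P cells it was −0.89 and not called. The calls of Fzd7 and Wnt4 were also lost without any 1 C library or any 1 P library of day 1, at log2 ratios from 1.34 to 1.38 for Fzd7 and from −1.38 to −0.91 for Wnt4.

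Wnt10a, a ligand known to restrain adipogenesis, had 16 and 18 counts in C cells and 0 in both P libraries. Against the limit of 3 counts over the group, it was at least 11.1-fold lower in P cells (edgeR, adjusted p = 0.0597). The call was lost without any 1 of the C libraries. Its neighbour on chromosome 1 is Wnt6, which had 124 and 90 counts in C cells, against 45 and 8 counts for P cells, a log2 ratio of −1.81 ± 0.78 (edgeR, adjusted p = 0.204). Fzd1 and Lgr4 passed on adjusted p but not on size, with log2 ratios of 0.92 ± 0.25 and 0.65 ± 0.15 (edgeR, adjusted p = 0.0852 and 0.0608). When the 4 libraries of day −2 were fitted alone, 1 of the 7 calls, that of Lgr6, was kept.

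**Figure D3:**
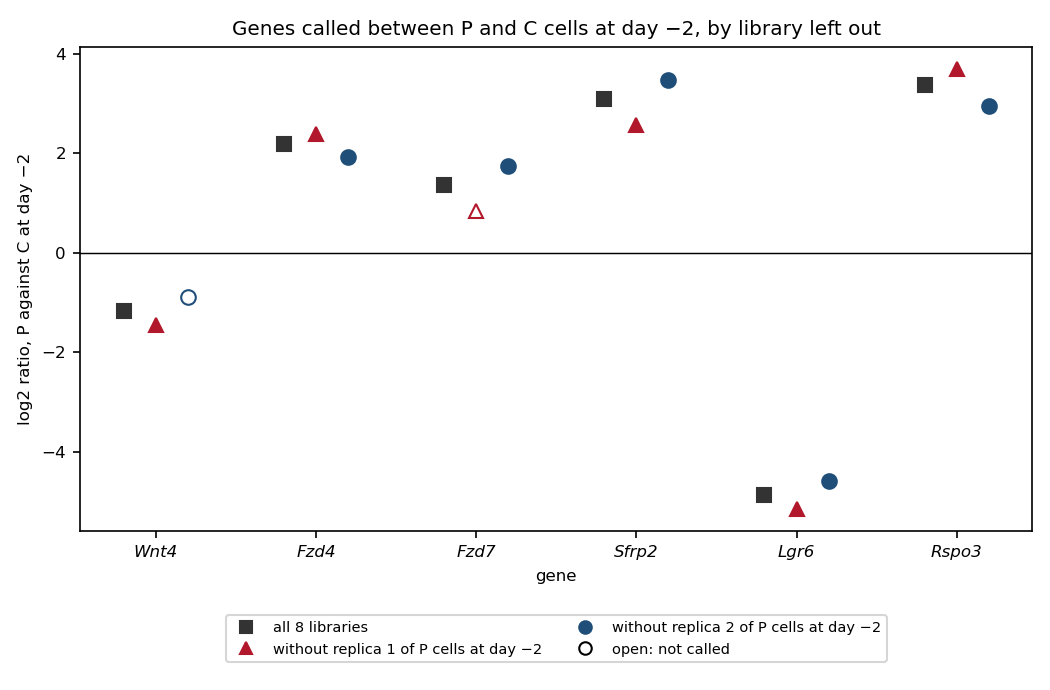
Log2 ratio of P against C cells at day −2 for 6 of the 7 called genes (Wnt10a, at 0 counts in P cells, is left out), with all 8 libraries and without each P replica of that day. Filled symbols are called: Lgr6, Sfrp2, Fzd4 and Rspo3 were called without either replica, while Fzd7 was not called without replica 1 (0.84) and Wnt4 not without replica 2 (−0.89).

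At day 1, 24 hours into induction, P cells had less Wnt4 RNA than C cells and more of Fzd4, Lgr4, Rspo2, Rspo3 and Sfrp2, and no other of the 29 genes was called. With 5 of 29 genes called higher (17.2%), the background was that 1.83% of all genes were called higher. The single gene called lower was 3.45% of the 29, where 2.23% of all genes were. The medians were 0.16 over the 29 genes and 0.01 over all genes. This comparison shares its P and C libraries with the induction comparisons above. The adipocyte markers, at 201 to 203 CPM in P cells against 36.2 to 42.9 CPM in C cells, moved with it, and their part in the result was not tested.

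Wnt4 was at 133 and 131 CPM in C cells and at 18.9 and 19.6 CPM in P cells, a log2 ratio of −2.78 ± 0.21 (edgeR, adjusted p = 0.00187). It was the gene of this comparison whose call held without each library in turn. Fzd4 was at 20.7 and 24.4 CPM in C cells and at 75.9 and 69.5 CPM in P cells, a log2 ratio of 1.69 ± 0.20 (edgeR, adjusted p = 0.00788). Lgr4 was at 73.5 and 64.2 CPM in C cells and at 176 CPM in both P replicas, a log2 ratio of 1.35 ± 0.15 (edgeR, adjusted p = 0.00704). Neither receptor overlapped between P and C cells. Fzd4 was not called without replica 1 of C cells or either P replica of day 1, at log2 ratios of 1.54, 1.62 and 1.75, and Lgr4 not without replica 2 of C cells or either P replica, at 1.25, 1.35 and 1.35.

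Both R-spondins were measured on few counts. Rspo2 had 7 and 6 counts in C cells, against 40 and 36 counts for P cells, a log2 ratio of 2.69 ± 0.48 (edgeR, adjusted p = 0.0321). Rspo3 had 7 and 14 counts in C cells, against 51 and 62 counts for P cells, a log2 ratio of 2.59 ± 0.50 (edgeR, adjusted p = 0.0406). Both were higher in each P replica. Sfrp2 was at 6.04 and 7.45 CPM in C cells and at 16.9 and 15.7 CPM in P cells, a log2 ratio of 1.27 ± 0.31 (edgeR, adjusted p = 0.0835). The calls of these 3 genes were lost without any 1 library other than those of P cells at day −2, at log2 ratios from 2.58 to 2.77 for Rspo2, from 2.15 to 3.16 for Rspo3 and from 1.10 to 1.42 for Sfrp2.

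Among ligands that were not called, Wnt6 was at 11.0 and 13.5 CPM in C cells and at 1.24 and 2.29 CPM in P cells of day 1, a log2 ratio of −2.80 ± 0.76 (edgeR, adjusted p = 0.117). Wnt10a had 7 and 13 counts in C cells, against 3 and 0 counts for P cells, a ratio of 5.92 with an exact interval of 1.76 to 31.1 and an adjusted p of 0.321 by edgeR. Wnt11 had 3 and 2 counts in C cells, against 29 and 28 counts for P cells, a log2 ratio of 3.61 ± 1.14 (edgeR, adjusted p = 0.166). Wnt6 and Wnt11 were called by DESeq2 and when the libraries of day 1 were fitted alone.

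Whether the change from day −2 to day 1 differed between P and C cells was tested as a difference of responses. A difference was called at an adjusted p under 0.1 with no threshold on size. Of the 29 genes, Lgr6 was called higher (the response in P cells less negative) and Wnt4 lower (a smaller rise in P cells), where 0.435% of all genes were called higher and 1.93% lower. The median difference was −0.32 over the 29 genes and −0.01 over all genes. For Lgr6 the difference was 4.46 ± 0.86 (edgeR, adjusted p = 0.0731), from a fall of 6.13 in C cells to one of 1.67 in P cells, whose level was already at 10 counts per library at day −2. For Wnt4 it was −1.62 ± 0.33 (edgeR, adjusted p = 0.0913), from a rise of 6.07 to one of 4.46. Both calls were lost without any 1 library other than those of P cells at day −2, at differences from 3.04 to 5.11 for Lgr6 and from −1.88 to −1.41 for Wnt4. Without replica 2 of P cells at day −2, 19 of 32 tested members were called (59.4%), close to the background share, since 8395 of all 13982 genes tested were then called. For Fzd1, whose rise was called in C cells alone, the difference of −1.57 ± 0.35 was not called (edgeR, adjusted p = 0.109), nor was that of Sfrp2 at −1.82 ± 0.43 (edgeR, adjusted p = 0.13) or of Rspo2 at 2.02 ± 0.71 (edgeR, adjusted p = 0.278).

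**Figure D4:**
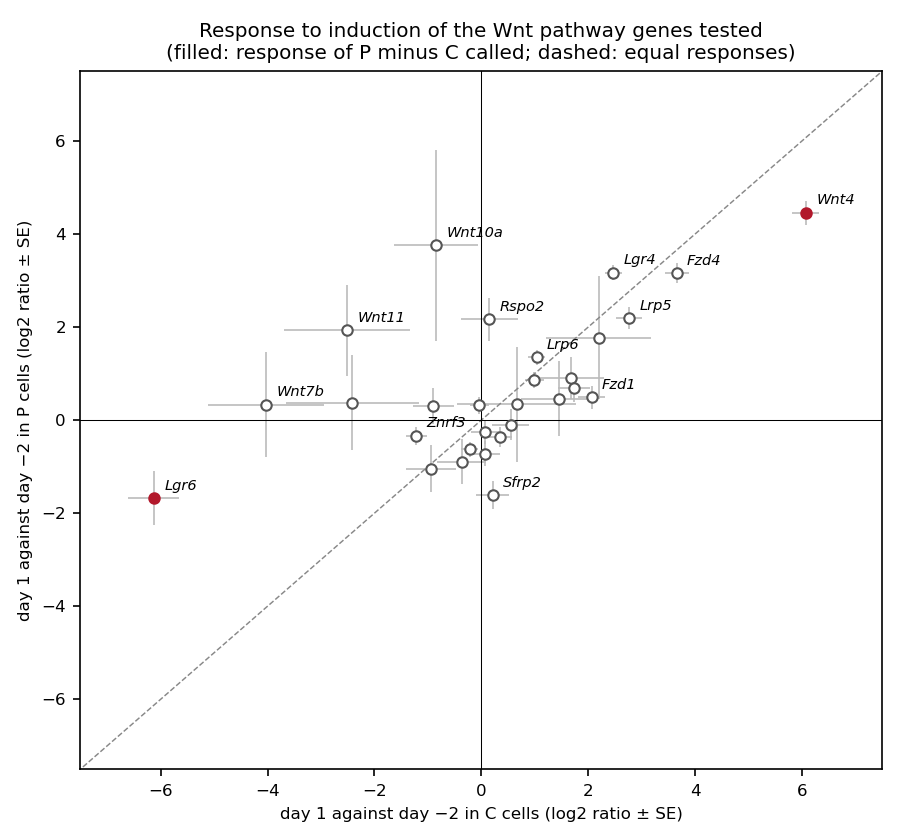
Response to induction (log2 ratio ± SE, day 1 against day −2) of the 29 tested genes in C cells (x axis) and P cells (y axis), with a dashed line of equal responses. The filled points, Wnt4 (6.07 and 4.46) and Lgr6 (−6.13 and −1.67), are those whose difference was called.

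Of the 15 genes tested and not called, those with a mean of at least 10 CPM were Wnt5a, Fzd2, Fzd8, Tcf7l1 and Tcf7l2. Wnt5a, a ligand of the non-canonical branch, ranged from 24.1 to 60.9 CPM, the highest value being replica 1 of P cells at day −2, where replica 2 had 34.3 CPM. Fzd2 ranged from 51.0 to 88.7 CPM and Fzd8 from 6.51 to 16.0 CPM, also with the highest value in that replica. Tcf7l1, a TCF factor that mostly represses targets, ranged from 74.9 to 207 CPM: its log2 ratio at day 1 was 0.99 ± 0.18 in C cells and 0.87 ± 0.17 in P cells, with adjusted p of 0.0078 and 0.0155 by edgeR but a ratio under 2. Tcf7l2, the TCF factor most often studied in adipocytes, ranged from 13.6 to 19.9 CPM, and Lef1 from 4.96 to 8.15 CPM. The others were Wnt9a, Wnt10b, Wnt11, Wnt6, Fzd3, Fzd5, Dkk3, Lgr5 and Rspo4, with between 0 and 338 counts in a library.

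Beyond these genes, 93 further genes of the pathway in 6 lists were looked up, of which 75 were tested and 29 called in at least 1 test, where 31.0% of all genes tested were. The counts per list below are read against the shares of all genes given above, which were 10.7% higher and 9.68% lower at induction in C cells, 7.65% higher and 10.4% lower in P cells, 4.83% and 2.15% between P and C cells at day −2, and 1.83% and 2.23% at day 1. In the destruction complex and β-catenin list, 15 of 15 genes were tested. None was called in C cells at induction, between P and C cells at either day, or in the difference of responses. Dvl2, a dishevelled protein, was called lower at induction in P cells, at −1.13 ± 0.39 (edgeR, adjusted p = 0.0816), a call lost without any library other than replica 2 of P cells at day −2, and at −0.31 without replica 1. Ctnnb1, β-catenin itself, was between 466 and 568 CPM in every library and not called in any test.

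Of 14 tested nuclear cofactors, 3 were called higher in C cells at induction: the Groucho family co-repressors Tle2 and Tle4 (2.32 ± 0.31 and 1.83 ± 0.16, edgeR, adjusted p = 0.00247 and 0.000561) and Bcl9l, a β-catenin co-activator (1.61 ± 0.38, edgeR, adjusted p = 0.0225). The last was lost without either C replica of day −2 or replica 2 of day 1, at 1.71, 1.52 and 1.40. In P cells Tle4 was called higher (1.13 ± 0.16, edgeR, adjusted p = 0.00441) and Ctnnbip1, a β-catenin inhibitor, lower (−1.21 ± 0.37, edgeR, adjusted p = 0.0623), while 1 gene, Tle2, was higher in P than in C cells at day −2 (1.51 ± 0.30, edgeR, adjusted p = 0.0365). Ctnnbip1 was not called without any library other than replica 2 of P cells at day −2 (−0.45 without replica 1), nor Tle2 without either C replica of day −2 (1.53 and 1.49). Of 7 genes for Wnt lipidation, secretion and cleavage, Porcn, the acyltransferase of Wnts, and Trabd2b, a Wnt-cleaving protease, were called higher in C cells (1.19 ± 0.23 and 1.39 ± 0.19, edgeR, adjusted p = 0.0113 and 0.00291), and no gene was called elsewhere.

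Of 15 tested non-canonical and planar polarity genes, Prickle1 and Fuz were called higher at induction in both kinds of cells (log2 ratios of 1.83 and 2.34 without Prep1 DR, of 1.80 and 1.95 with it) and Daam2, a formin-related protein, lower (−1.04 and −1.19, lost at −0.92 without replica 2 of C cells at day 1 and at −0.90 without replica 1 of P cells at day −2). Daam2 was higher in P cells at both days (1.98 ± 0.21 and 1.83 ± 0.21, edgeR, adjusted p = 0.00394 and 0.00714), the latter lost without either P replica of day 1 at 1.84 and 1.82. Ror2, the receptor of Wnt5a, was called higher at induction in C cells (1.39 ± 0.29) and in P cells over C cells at day −2 (1.76 ± 0.29, edgeR, adjusted p = 0.0154 and 0.0201). These were lost without replica 1 of C cells at day −2 (1.23 and 1.59), and the second also without replica 2 (1.93). In all, the list had 3 higher and 1 lower in C cells, 3 higher and 2 lower in P cells, and 2 higher in P than in C cells at each day.

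Of 10 tested other modulators, Igfbp4, a binding protein that also inhibits Wnt signalling, and Sulf2, a heparan sulfatase, rose at induction in both kinds of cells (for C cells 4.15 and 2.78, for P cells 3.55 and 2.09), and Apcdd1, an inhibitor that binds Wnts and LRP5, fell (−2.28 in both). Igfbp4 and Apcdd1 were lower in P than in C cells at day 1 (−2.09 ± 0.46 and −1.15 ± 0.21, edgeR, adjusted p = 0.0596 and 0.0338). Both of these calls were lost without any 1 C library or any 1 P library of day 1, at −2.21 to −2.01 and −1.25 to −1.09. Apcdd1 was already lower in P cells at day −2 (−1.16 ± 0.20, edgeR, adjusted p = 0.0224). This call was lost without either C replica of that day or replica 2 of P cells, at −1.20, −1.12 and −0.93. In all, 3 of the 10 were called higher and 1 lower in C cells, 2 higher and 2 lower in P cells, 4 and 1 between P and C cells at day −2, 1 and 2 at day 1, and 0 and 2 in the difference of responses.

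Of the 16 tested genes that are often listed as β-catenin targets, at induction 2 were called higher and 5 lower in C cells, and for P cells 1 higher and 7 lower. Apcdd1, named above among the other modulators, is also in this list, so its calls are counted in both. Between P and C cells 2 were higher and 1 lower at day −2, and 0 and 4 at day 1. The list's median log2 ratio was 0.24 and −0.72 at induction, for C and P cells, against −0.01 and 0.02 over all genes. Ccnd1 (cyclin D1) fell in both (−3.15 ± 0.22 and −2.27 ± 0.21), as did Plaur, the urokinase receptor (−3.27 ± 0.35 and −4.28 ± 0.37), and Ccn4 (−1.83 ± 0.23 and −3.33 ± 0.24). Ccn5 was called higher in P than in C cells at day −2 (2.59 ± 0.27) and lower at day 1 (−1.42 ± 0.26), with edgeR adjusted p of 0.00391 and 0.0367. The second call was lost without any 1 C library or any 1 P library of day 1, at −1.45 to −1.39.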

How the data were processed

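RNA-seq was performed on 8 libraries, 2 biological replicas for each of C and P cells at day −2 and day 1. The authors deposited raw counts per gene: Ion Torrent reads were cleaned with FASTX-Toolkit, aligned to mm9 with TopHat2 (2.0.9) and counted against UCSC refGene with Bioconductor packages. Strand use and the handling of multi-mapped reads are not given in the sources used here, so paralogs and overlapping genes may share reads. Gene symbols came from the RefSeq table of GRCm38.p6 (23929 of 24013 identifiers matched, 84 did not). Its coordinates were used only to name overlapping and neighbouring genes, and that build is not the mm9 of the counts.

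The members and lists were chosen with earlier results of these data known. The counts of all genes kept by filterByExpr were normalised by TMM and fitted with edgeR (4.0.16; R 4.3.3) in 1 quasi-likelihood model of 4 condition means, with Benjamini-Hochberg adjustment over 13339 genes, and a gene was called at an adjusted p under 0.1 and a ratio over 2 or under 0.5. CPM are counts divided by the effective library size (the total times its TMM factor), on the usual scale. SE is the log2 ratio divided by the root of the F statistic. A single gene compared 2 against 2 by an exact permutation test cannot go below p = 0.333. DESeq2 (1.42.0) and other alternatives were run, and the test was checked on simulated data. There it found fewer of the changed genes for the difference of responses than for the other comparisons. False calls exceeded the nominal share in most comparisons. Limits for passing this check were in part set after its results were seen. The simulation gave a gene the same spread in all conditions, so it could not check the wider spread of P cells at day −2. A planned search for promoter motifs was not run, since no promoter sequence was used here. Every gene matching the symbols is accounted for. Called ones have their values in each library, and uncalled ones with a mean of at least 10 CPM have their range. The 6 other lists have at most 4 named genes each, those with the largest called ratio, and besides them Ctnnb1 and Gpc4. Nothing in the labels ties the replicas of different conditions, and the correlations of same-numbered deviations were between −0.363 and 0.198, so that no block was used. The p-values judge a difference against a spread estimated over all 4 conditions and moderated over genes. They do not rest on the spread of the compared libraries alone, and P cells at day −2 share that estimate.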

Additional observations from a re-analysis of the deposited data

Results flagged for a closer look

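For 6 of the genes named above, P and C cells differed in their change from day −2 to day 1, where 316 of all 13339 genes tested were called. The genes named from the 6 lists were picked by their largest called ratio, so this count cannot be read against that share. Gpc4, of the other modulators and not named above, was also called at −1.57 ± 0.26 (edgeR, adjusted p = 0.0478). Its difference lay between −1.83 and −1.30 in the alternatives and was not called in all of them. The test was that of the difference itself (edgeR, adjusted p under 0.1). On the log2 scale the response of P cells minus that of C cells was 4.46 for Lgr6, −1.62 for Wnt4, −2.01 for Tle2, −1.78 for Tspan12, −1.50 for Ccn4 and −4.01 for Ccn5. Tspan12, a tetraspanin that acts with Fzd4 in norrin signalling, had a log2 ratio of 0.67 ± 0.23 in C cells and of −1.10 ± 0.22 in P cells, the latter not called without replica 1 of P cells at day −2 (−0.90) or replica 2 at day 1 (−0.95). It was higher in P than in C cells at day −2, by 1.75 ± 0.23 (edgeR, adjusted p = 0.0086, lost without either C replica of that day at 1.78 and 1.71), and its log2 ratio at day 1 was −0.03 ± 0.22. The differences of Lgr6, Wnt4, Tle2, Ccn4 and Tspan12 were each no longer called without any 1 library other than those of P cells at day −2, at −2.17 to −1.83 for Tle2, −1.63 to −1.38 for Ccn4 and −1.94 to −1.64 for Tspan12, while Ccn5 was called in all 17 alternatives run.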

How the results depend on the processing

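None of the 34 calls of the Wnt genes in the 5 tests changed sign under any alternative: of 629 values, 520 stayed called and 109 did not. The number of Wnt genes called with each library left out in turn ranged from 9 to 15 for induction in C cells (11 with all libraries), from 5 to 15 in P cells (8), from 3 to 12 for P against C cells at day −2 (7), from 1 to 11 at day 1 (6) and from 0 to 19 for the difference of responses (2). For P against C cells at day −2 the count was 4 with at least 10 counts required in every library and 1 with the libraries of that day fitted alone. At day 1 fitting its own libraries lost no call and added Wnt11, Wnt6 and Dkk3, with 899 calls over all genes against 542. For induction such fits lost Rspo3 and added Rnf43, Wnt10b, Wnt11 and Wnt6 in C cells. In P cells they lost Rspo2 and Lgr6, with 1213 calls over all genes against 2406. For the difference of responses it was 4 with DESeq2, 4 without the filter on low counts and 0 at an adjusted p under 0.05. With a replicate block the counts were 11, 7, 6, 5 and 0, and since the numbers were not shown to pair the libraries these are no test of a weaker effect. With the numbers of P cells at day 1 crossed, or of all day 1 libraries, which was chosen after seeing the data, the difference of responses had 0 and 1. The calls over all genes moved with them when a library was left out, from 1664 to 3329, 1248 to 5000, 188 to 4380, 63 to 994 and 32 to 8395, the highest of the last without replica 2 of P cells at day −2. Over all genes, day −2 had 931 calls, 81 with its own libraries, 597 with the block and 602 at 0.05. The difference of responses had 316 calls, 930 with DESeq2, 117 with the block and 174 at 0.05. Scaling by library totals put the median of all genes in the difference of responses at 0.29, and moved the share of calls that were higher at day −2 from 69% to 55%. The cause of these changes was not tested.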
